A study of Homo sapiens with 58 samples.

Results

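The NRF2 oxidative stress genes are described here by the HuR crosslinking peaks that carry their names in a deposited table of peak coverage. The symbols that define the set are NFE2L2, KEAP1, SQSTM1, SLC7A11, GCLC, GCLM, TXNRD1, NQO1, HMOX1 and SRXN1, 10 in all. After repeated lines were dropped, 332 of 387214 peaks bore one of these names, and they belonged to 9 of the 13836 genes named in the table. SRXN1, which encodes sulfiredoxin, an enzyme that repairs over-oxidised peroxiredoxins, had no peak under its name. Peaks were assigned to the set by gene name alone.

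NFE2L2 encodes NRF2, a transcription factor that is held at low levels by the ubiquitin ligase adaptor KEAP1 and released when reactive cysteines of KEAP1 are modified by oxidants or by arsenite. NRF2 then drives genes for glutathione synthesis, thioredoxin reduction, quinone reduction and heme breakdown, and in liver cells this program is a main defence against toxic compounds. HuR (ELAVL1) is a mostly nuclear RNA-binding protein that recognises U-rich and AU-rich stretches in introns and 3' untranslated regions (3'UTRs), shuttles to the cytoplasm, and is known to change its localisation under stress.

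HuR was immunoprecipitated after UV crosslinking from Huh-7.5, a human hepatocellular carcinoma line, and the bound RNA fragments (tags) were sequenced. The central comparison uses 12 libraries of nuclear and cytoplasmic fractions of wild-type cells, with 3 libraries each of mock-treated cells and of cells given 0.5 mM sodium arsenite for 45 minutes. These cells went through no peroxidase reaction. A further 46 libraries came from lines that express the peroxidase APEX in the nucleus (APEX-NLS), the cytoplasm (APEX-NES) or fused to the stress granule protein G3BP1 (APEX-G3BP1). All 46, mock and arsenite alike, received biotin phenol at 0.5 mM for 30 minutes and hydrogen peroxide at 1 mM for 1 minute, so their mock groups were not free of oxidant. Of these, 17 are inputs that went through the HuR precipitation alone, with 2 mock and 2 arsenite inputs for NLS and for NES, and 4 mock and 5 arsenite inputs for G3BP. The other 29 are enriched libraries with an added streptavidin capture, with 4 per treatment for NLS and for NES, and 6 mock and 7 arsenite for G3BP. The labels do not say whether each line is a clone or whether replicates came from separate cultures, so p-values measure the spread between these libraries, which may be technical.

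Tags in peaks numbered 235471 to 673322 per fraction library, 1353 to 484305 per input and 519 to 86419 per enriched library. In 16 libraries there were fewer than 10000 tags in peaks, all of them outside the fractions. Hepatocyte markers had peaks for 7 of 9 genes, and APOA1 and TTR had none. Their summed level, in CPM (tags per 1000000 tags of the library), was 1777 to 2522 in mock and 945 to 1064 in arsenite libraries of the cytoplasm, and 1113 to 1195 and 656 to 711 in the nucleus. It was thus lower after arsenite in both fractions without overlap, and the part of this in the member results was not tested. Summed leukocyte, fibroblast and endothelial markers stayed at or below 5.46, 1.60 and 1.73 CPM there. The nuclear RNAs MALAT1 and NEAT1 together reached 2788 to 3124 CPM in nuclear mock libraries and 2265 to 2829 in cytoplasmic mock libraries, and 3028 to 3879 and 2603 to 3584 after arsenite. The cytoplasmic libraries thus carried nuclear RNA as well, and its part in the fraction results was not tested.

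The 9 genes together held 10090 of 7887093 tags. TXNRD1, the cytosolic thioredoxin reductase, had 3596 tags in 73 peaks and NFE2L2 had 3309 in 114. GCLM, the modifier subunit of glutamate-cysteine ligase, had 1825 tags in 45 peaks, and its catalytic partner GCLC had 399 in 30. SLC7A11, the light chain of the cystine/glutamate antiporter, had 417 tags in 35 peaks, and SQSTM1, the autophagy receptor p62 that binds KEAP1, had 350 in 21. HMOX1, the inducible heme oxygenase, had 96 tags in 8 peaks, KEAP1 had 64 in 5, and NQO1, a quinone reductase, had 34 in 1. These counts are not per length and do not rank the genes by HuR binding. They also combine how much of each transcript was present with how often HuR was crosslinked to it, and since transcript levels were not analysed here the 2 cannot be told apart, nor can fewer cells from less RNA per cell.

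The peaks fell mainly in introns and 3'UTRs, and the mix differed by gene. NFE2L2 held 2547 tags in 57 intron peaks against 100 tags in 6 peaks of its 3'UTR. TXNRD1 held 1856 tags in 9 peaks of its 3'UTR and 1566 in 56 intron peaks, and GCLM held 882 in 18 and 909 in 25. The single NQO1 peak, at chr16:69710850-69710870 on the minus strand of GRCh38, was annotated as both 3'UTR and intron and classed with the 3'UTRs. Of the peaks named NFE2L2, 49 with 627 tags lay outside the RefSeq gene, 5.576 to 126.407 kb beyond its highest coordinate, which is upstream of the 5' end because the gene is on the minus strand. These included all 44 peaks of the class ncRNA. The stretch from the first to the last of the 49 touches the long noncoding RNA LOC100130691, MIR6512, the pseudogene H3P7 and the small nucleolar RNA gene LOC124906145. Whether single peaks overlap these genes was not examined. Values of the class ncRNA are therefore given under the name in the table and were not taken as values of the NRF2 transcript.

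The share of member tags in 3'UTRs was highest in the mock cytoplasm and the difference between fractions was smaller after arsenite. In the mock nucleus 13.8% ± 1.54 (SD, n = 3) of member tags lay in 3'UTRs and 74.6% ± 1.88 in introns. In the mock cytoplasm the shares were 57.1% ± 6.12 and 36.7% ± 4.37. After arsenite the nuclear shares were 27.1% ± 3.76 and 63.5% ± 2.76, and the cytoplasmic shares 33.2% ± 3.38 and 57.5% ± 2.71. All peaks of the table moved the same way, from 11.7% to 19.2% in 3'UTRs in the nucleus and from 42.3% to 24.5% in the cytoplasm, so this shift was not particular to the members.

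**Figure D1:**
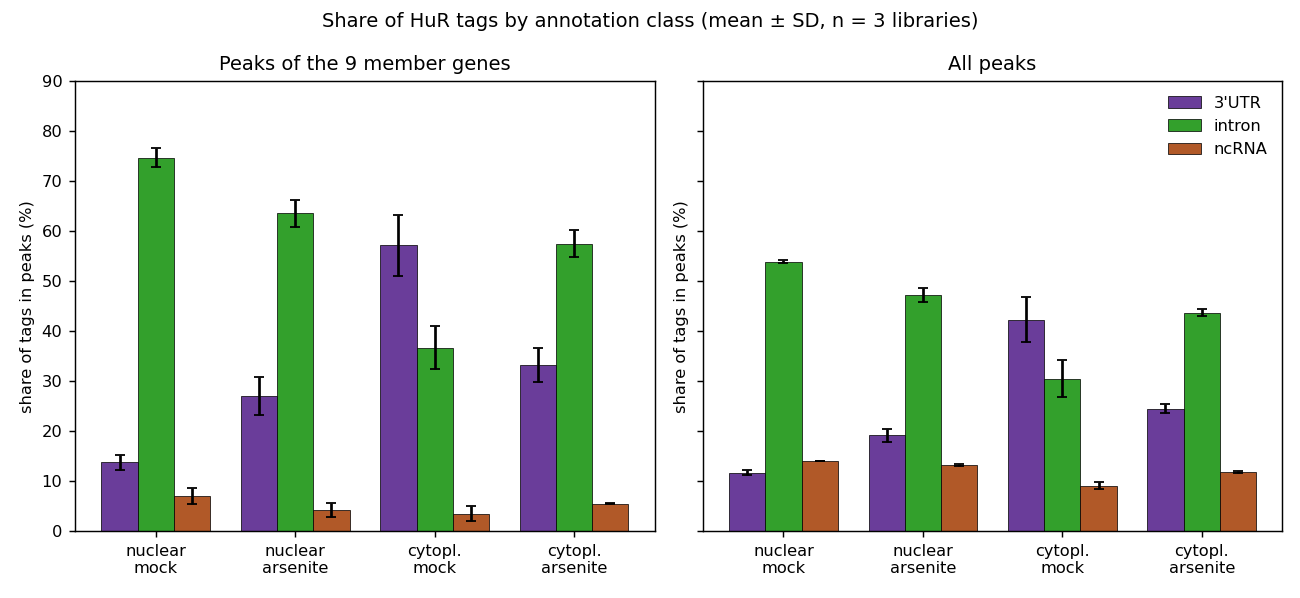
Share of tags in peaks, in percent, that lay in 3'UTRs, introns and the class ncRNA in the 4 groups of fraction libraries, for the 9 member genes and for all peaks; bars are means with SD (n = 3). The 3'UTR share of the members was 57.1% in the mock cytoplasm and 33.2% in the arsenite cytoplasm, against 42.3% and 24.5% over all peaks.

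For tests, the tags of each gene were summed by class and divided by the library's total (CPM). Differences are on the log2 scale with a pseudocount of 2.28 CPM, which shrinks the change of low sums, and they were fitted with limma over all sums of the table. Of the 30 member sums, 26 or 27 passed the filter on low values in each comparison of fractions. In mock cells, nuclear and cytoplasmic libraries differed in 8 of 27 member sums, beside 29.0% of all sums tested. Of these, 6 were 3'UTR sums that were lower in the nucleus and 2 were intron sums that were higher there, beside 16.2% of all sums called lower and 12.8% called higher. Of the 8, 3 reached the filter only through the group where they are high, namely the KEAP1 intron, NQO1 and GCLC 3'UTR sums, so a difference was partly a condition of being tested. Their values are given as a description, and 5 calls are without this limit; the shares over all sums include such sums too. The median over the 9 genes' 3'UTR sums was -1.53, against -0.98 over the 6090 genes tested, of which 49.4% were called lower, and the median over member introns was 0.54 against 0.48. Without the most tagged peak of each member sum, 6 of 7 member 3'UTR sums tested were lower in the nucleus, and 4 were called. That alternative was chosen after seeing the data.

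Among the regulators, NFE2L2 was higher in the nucleus in its introns and SQSTM1 was lower there in its 3'UTR. The NFE2L2 intron sum stood at 162, 147 and 146 CPM in the nuclear mock libraries and at 93.6, 95.7 and 99.1 in the cytoplasmic ones, without overlap. The difference was 0.64 (SE 0.14, limma adjusted p = 0.00374), nuclear over cytoplasmic. Its 3'UTR sum was 4.30 CPM in the nucleus and 8.37 in the cytoplasm, which did not pass the test (adjusted p = 0.157). KEAP1 intron tags numbered 9 over the 3 nuclear mock libraries and 0 over the cytoplasmic ones. The levels were 4.37, 2.73 and 2.90 CPM against 0 in each cytoplasmic library (limma adjusted p = 0.0058, given as a description). With one group at 0 the log2 value depends on the pseudocount and no fold is given. SQSTM1 3'UTR tags were lower in the nucleus, at 4.37, 1.82 and 3.86 CPM against 9.57, 9.17 and 16.9. That difference was -1.32 (SE 0.35, limma adjusted p = 0.0114), and it lost the call without nuclear mock replicate 2, cytoplasmic mock replicate 2 or cytoplasmic mock replicate 3, with an adjusted p of up to 0.0739.

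Of the glutathione genes, GCLM and SLC7A11 were lower in the nucleus in their 3'UTRs. GCLM 3'UTR sums were 13.1, 9.09 and 15.4 CPM in nuclear mock libraries and 67.0, 89.6 and 86.5 in cytoplasmic ones, a difference of -2.50 (SE 0.23, limma adjusted p = 2.33e-06). SLC7A11 3'UTR sums were 5.83, 3.64 and 4.83 CPM against 22.3, 30.6 and 23.2, a difference of -1.97 (SE 0.27, limma adjusted p = 0.000103). Neither pair of groups overlapped, and both calls held with any single library left out. GCLC 3'UTR sums, given as a description, rested on 2 nuclear and 20 cytoplasmic tags, with a difference of -1.53 (SE 0.41, limma adjusted p = 0.0123). That call was lost without either of nuclear mock replicates 1 and 2 or cytoplasmic mock replicates 1 and 2, with an adjusted p of up to 0.0969.

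TXNRD1 was lower in the nucleus as well. Its 3'UTR sums were 29.1, 29.1 and 28.0 CPM in the nuclear mock libraries and 146, 156 and 226 in the cytoplasmic mock libraries. This was the lowest adjusted p of the members in this comparison (4.78e-07 by limma, with a difference of -2.49 and an SE of 0.19). For NQO1, again as a description, there was no tag in any nuclear mock library and 14 in the cytoplasmic ones, at 5.32, 2.04 and 7.38 CPM (limma adjusted p = 0.00558). This call was lost only without nuclear mock replicate 1, where the adjusted p was 0.0537.

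**Figure D2:**
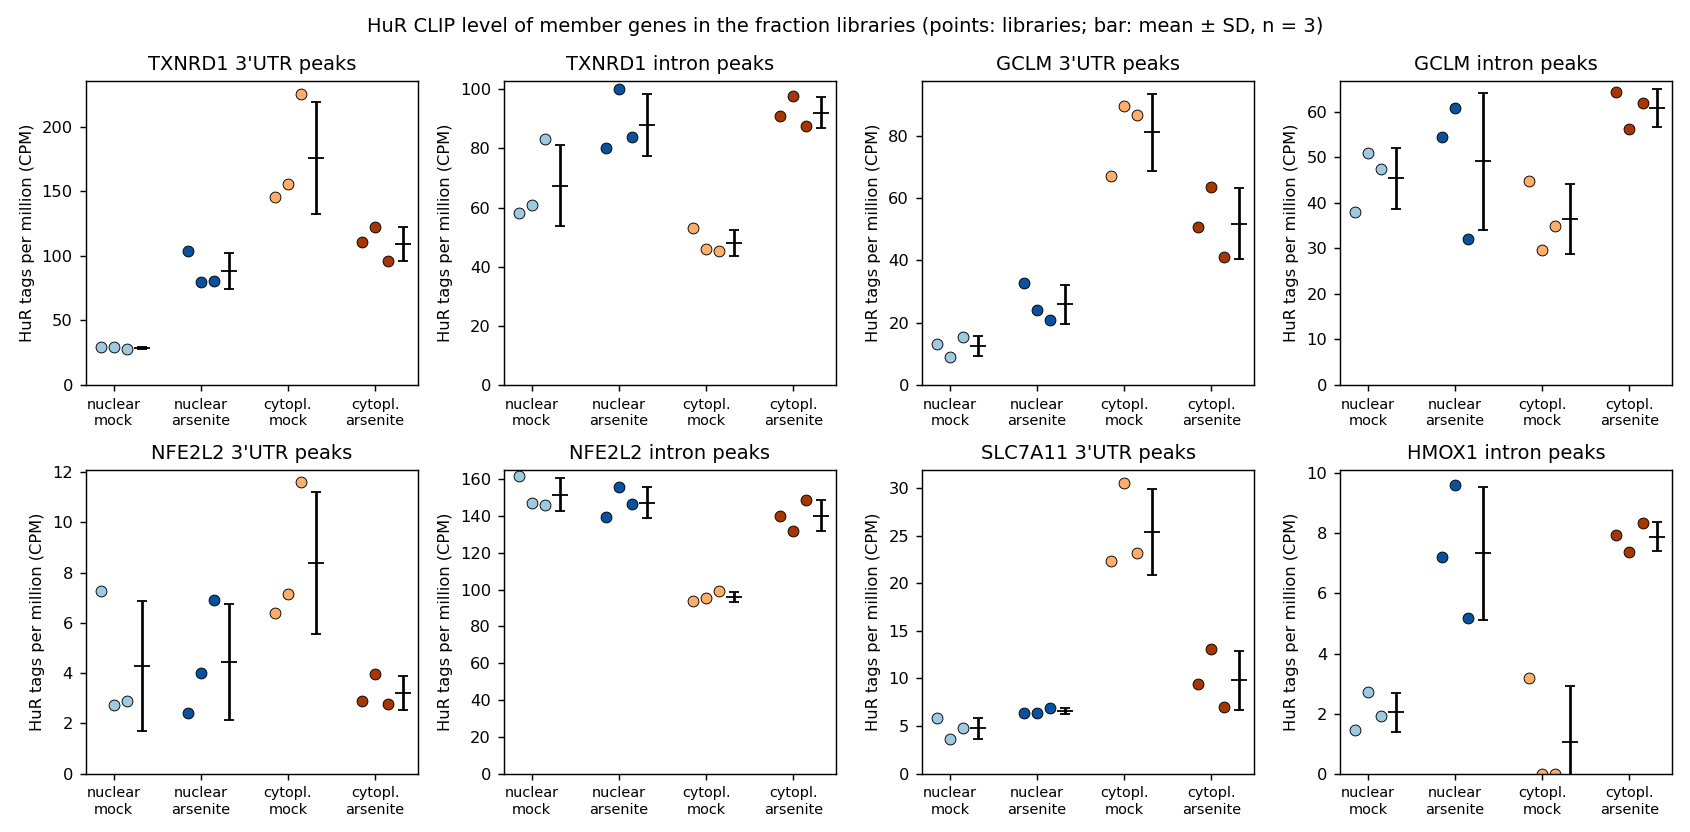
HuR tags in CPM (linear axes from 0) for the 3'UTR and intron sums of TXNRD1, GCLM and NFE2L2, the SLC7A11 3'UTR sum and the HMOX1 intron sum in the 12 fraction libraries; points are libraries, and the bar beside them is the mean with SD (n = 3). TXNRD1, GCLM and SLC7A11 3'UTR sums are highest in the mock cytoplasm, at means of 176, 81.0 and 25.4 CPM, and NFE2L2 intron sums are lowest there, at 96.2 CPM.

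Peak by peak, 9 of 174 member peaks tested differed between the mock fractions, beside 2.82% of all peaks, and all 9 were 3'UTR peaks lower in the nucleus, as 2.29% of all peaks were. Of these 9, 4 reached the filter only through the cytoplasmic group, namely the NQO1 peak, 1 of TXNRD1, 1 of GCLM and 1 of SLC7A11, which leaves 5 without this limit. The most tagged TXNRD1 peak, at chr12:104350017-104350037 on the plus strand, held 55.5% of the 3'UTR tags of the gene. It stood at 20.4, 18.2 and 17.4 CPM in the nucleus and at 87.2, 92.7 and 155 in the cytoplasm (difference -2.40, limma adjusted p = 0.0013). The TXNRD1 peak at chr12:104348801-104348821, the first along the 3'UTR at the end of the gene, stood at 2.91, 4.55 and 2.90 CPM against 23.4, 34.6 and 35.9 (difference -2.54, limma adjusted p = 0.00205). The most tagged GCLM peak, at chr1:93888702-93888722 on the minus strand, differed by -2.21 (limma adjusted p = 0.00565). The other 6 called peaks were 1 of TXNRD1, 2 of GCLM, 2 of SLC7A11 and the NQO1 peak. None of the 9 calls held with every single library left out: the highest adjusted p was 0.0753 for the most tagged TXNRD1 peak, lost only without cytoplasmic mock replicate 2. The other 8 were lost without either of cytoplasmic mock replicates 2 and 3, and all but the first TXNRD1 peak of the 3'UTR also without further libraries, with an adjusted p of up to 0.202.

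In the cytoplasm 3 of 9 member 3'UTR sums fell after arsenite, and 3 intron sums rose in addition to that of HMOX1, which is given as a description. Of 27 member sums, 7 changed, beside 13.3% of all sums: 3 fell, all of them 3'UTR sums, and 4 rose, all of them intron sums, while 6.62% of all sums fell and 6.7% rose. The HMOX1 intron sum, 1 of these 4, reached the filter only through the arsenite group, which leaves 6 calls without this limit. None of the 9 member 3'UTR sums was higher after arsenite, with a median of -0.60 against -0.30 over 6685 genes, of which 28.8% were higher and 18.6% were called lower. Without the most tagged peak of each sum, an alternative chosen after seeing the data, 3 of 8 were higher and 1, that of NFE2L2, was called lower. Among introns 7 of 8 were higher, with a median of 0.77 against 0.29 over 8068 genes, of which 73.3% were higher and 13.5% were called higher. The 7 and the median include the HMOX1 and KEAP1 sums, which reached the filter only through the arsenite group. Their direction was thus partly a condition of being tested.

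SLC7A11 had the largest called decrease. Its 3'UTR sums were 22.3, 30.6 and 23.2 CPM in mock cytoplasm and 9.39, 13.1 and 6.96 after arsenite, and the groups did not overlap. They fell by 1.21 on the log2 scale (SE 0.25, limma adjusted p = 0.00461). Its most tagged 3'UTR peak, at chr4:138171198-138171218 on the minus strand, averaged 10.1 CPM in mock and 1.94 after arsenite (difference -1.52, limma adjusted p = 0.0542). The sum without that peak differed by -0.80 (adjusted p = 0.0763). TXNRD1 3'UTR sums fell by 0.65 (SE 0.18, limma adjusted p = 0.0245), from 146, 156 and 226 CPM to 110, 122 and 96.0, and GCLM sums by 0.64 (SE 0.19, limma adjusted p = 0.0391), from 67.0, 89.6 and 86.5 CPM to 50.5, 63.7 and 41.0. Neither gene kept its call without its most tagged peak, where the differences were -0.22 (adjusted p = 0.435) and -0.50 (adjusted p = 0.112). The other 6 member 3'UTR sums did not pass the test. Of these NFE2L2 came nearest, at 6.38, 7.13 and 11.6 CPM against 2.89, 3.98 and 2.78 (difference -0.93, SE 0.32, limma adjusted p = 0.0649).

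Introns of TXNRD1, GCLM and NFE2L2 gained tags in the cytoplasm. TXNRD1 intron sums rose from 53.2, 45.8 and 45.3 CPM to 91.0, 97.8 and 87.6, by 0.91 (SE 0.16, limma adjusted p = 0.00172). GCLM intron sums rose from 44.7, 29.5 and 34.8 CPM to 64.3, 56.3 and 61.9, by 0.72 (SE 0.19, limma adjusted p = 0.0188). In both genes the 3'UTR and the introns thus moved in opposite directions in the same libraries. NFE2L2 intron sums rose from 93.6, 95.7 and 99.1 CPM to 140, 132 and 149, by 0.53 (SE 0.15, limma adjusted p = 0.0252). HMOX1 intron sums were 3.19, 0 and 0 CPM in mock and 7.94, 7.39 and 8.35 after arsenite, resting on 3 and 36 tags (log2 difference 1.73, SE 0.39, limma adjusted p = 0.00796). These values are a description, since a difference was partly a condition of being tested, and the log2 value ran from 0.65 to 2.98 over the alternatives. The most tagged HMOX1 intron peak, at chr22:35385966-35385986 on the plus strand, did not pass the test by itself (difference 0.80, limma adjusted p = 0.14), and nor did the most tagged NFE2L2 intron peak at chr2:177256486-177256506 on the minus strand, which averaged 23.1 and 24.9 CPM. KEAP1 introns had 0 tags in mock and 8 after arsenite, given as a description because this sum too reached the filter only through the arsenite group.

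Each of these cytoplasmic calls was lost without at least 1 of the 6 libraries. The TXNRD1 intron call was lost only without cytoplasmic arsenite replicate 2 (adjusted p = 0.053). Those of TXNRD1 3'UTR, GCLM 3'UTR, GCLM intron, NFE2L2 intron and HMOX1 intron were lost when any one library other than cytoplasmic mock replicate 1 was left out, with adjusted p-values of up to 0.185, 0.226, 0.122, 0.148 and 0.108. The SLC7A11 call was lost without cytoplasmic mock replicate 2 or any one of the 3 arsenite libraries, with an adjusted p of up to 0.0781. The direction of each stayed the same throughout.

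**Figure D3:**
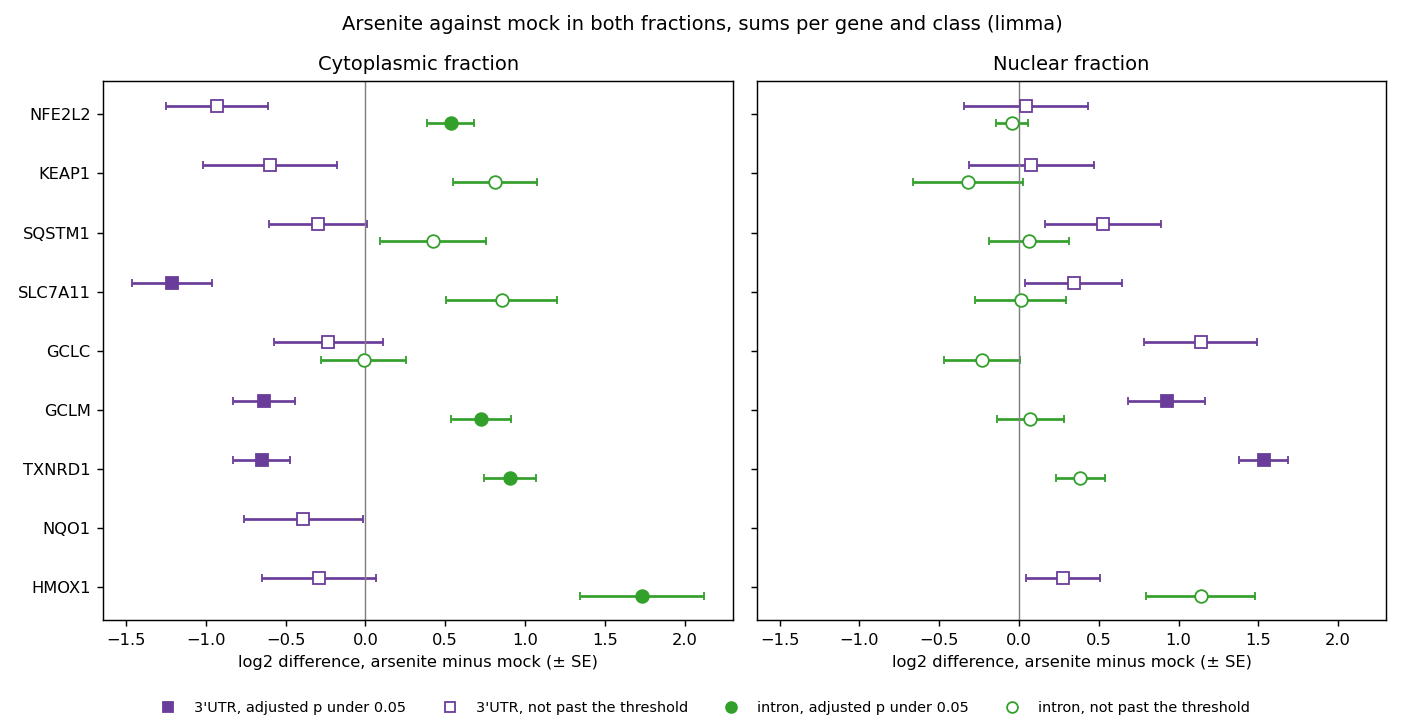
Log2 difference, arsenite over mock, of the 3'UTR and intron sums of the members in the cytoplasmic and nuclear fractions, with bars of 1 SE from limma and called sums marked. In the cytoplasm the 3'UTR sums lie below 0 and 7 of 8 intron sums above it; in the nucleus the TXNRD1 3'UTR sum, at 1.53, and the GCLM 3'UTR sum, at 0.93, are the called ones.

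Single peaks within TXNRD1 showed both directions. Of 220 member peaks tested in the cytoplasm 2 were called by limma, beside 0.76% of all peaks (0.24% higher and 0.52% lower), and both lay in this gene. The intron peak at chr12:104290247-104290267 rose from 8.51, 12.2 and 8.44 CPM to 29.6, 30.1 and 29.2, by 1.43 (SE 0.24, limma adjusted p = 0.0314). The 3'UTR peak at chr12:104348801-104348821 fell from 23.4, 34.6 and 35.9 CPM to 9.39, 7.96 and 11.8, by 1.47 (SE 0.27, limma adjusted p = 0.0388). Both calls were lost without any one of the 3 mock libraries, and the second also without arsenite replicate 2, with adjusted p-values of up to 0.245 and 0.265.

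The peaks of one 3'UTR are described here side by side, with no test between them, and were picked after their values were seen. Along TXNRD1, the first peak and the most tagged one, 1216 nucleotides downstream, averaged 31.3 and 112 CPM in mock cytoplasm and 9.72 and 55.0 after arsenite. The second of these was not called by limma (difference -0.97, adjusted p = 0.0879) but was by edgeR (adjusted p = 0.0404). The peak 744 nucleotides downstream of the first averaged 7.02 CPM in mock and 14.8 after arsenite, and its libraries did not overlap. In the nucleus that peak averaged 0.322 CPM in mock and 7.76 after arsenite, again without overlap. Limma called it in neither fraction and edgeR in the nucleus alone (adjusted p = 0.0425), where it reached the filter only through the arsenite group, so that call is not used. Along GCLM, the peak nearest the start averaged 25.7 CPM in mock cytoplasm and 12.8 after arsenite (difference -0.89, limma adjusted p = 0.0938), while one 1970 nucleotides further, at chr1:93886732-93886752, averaged 11.5 and 14.4 (difference 0.27, limma adjusted p = 0.632). Neither GCLM peak was called between mock and arsenite cytoplasm by limma or edgeR.

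**Figure D4:**
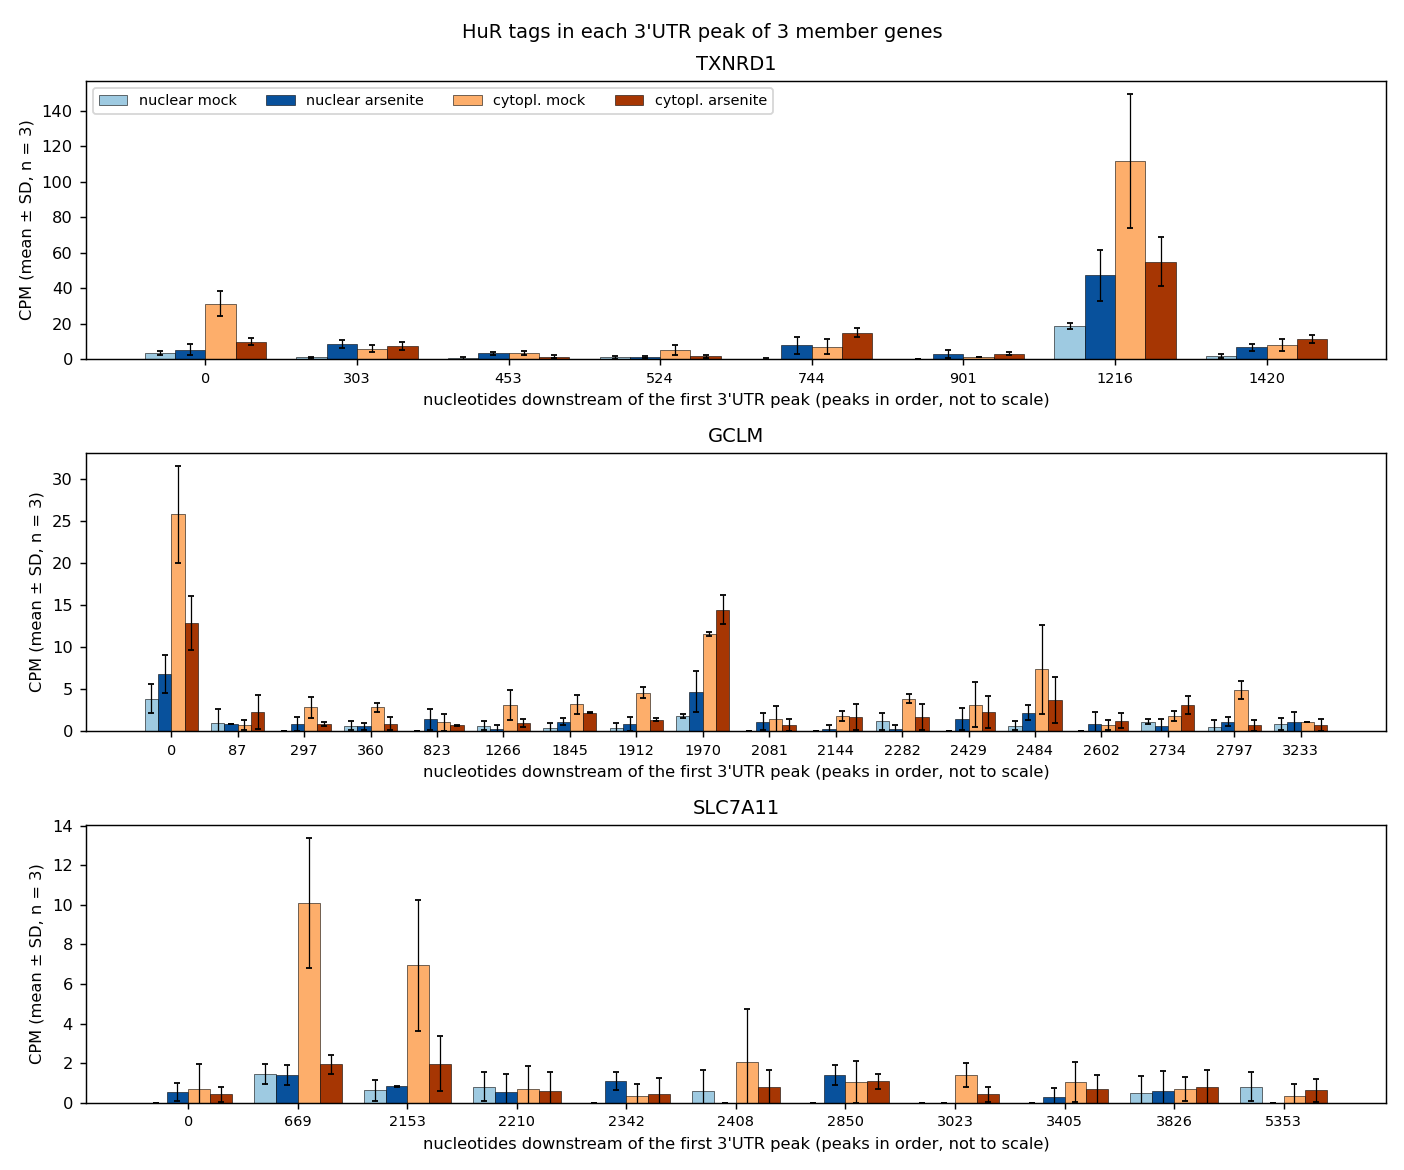
Mean CPM (bars, with SD, n = 3) of each peak in the 3'UTRs of TXNRD1, GCLM and SLC7A11 in the 4 groups of fraction libraries; peaks stand in order and are named by nucleotides downstream of the first one, not to scale, and the TXNRD1 peak in an upstream 3'UTR is left out. The TXNRD1 peak at 1216 nucleotides averages 112 CPM in mock cytoplasm and 18.7 CPM in mock nucleus.

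In the nucleus arsenite went with more 3'UTR tags on 2 of these genes. Of 26 member sums 2 changed, beside 6.13% of all sums, and both rose, beside 4.48% of all sums. TXNRD1 3'UTR sums rose from 29.1, 29.1 and 28.0 CPM to 104, 80.0 and 80.6, by 1.53 (SE 0.15, limma adjusted p = 1.89e-05), a ratio of means of 3.07. This call was lost only without nuclear arsenite replicate 3, where the adjusted p was 0.0504. GCLM 3'UTR sums rose from 13.1, 9.09 and 15.4 CPM to 32.8, 24.0 and 20.8, by 0.93 (SE 0.24, limma adjusted p = 0.0351). That call held only when nuclear mock replicate 3 was the library left out, and the adjusted p was otherwise up to 0.2. All 8 member 3'UTR sums tested were higher, with a median of 0.43 against 0.39 over 6001 genes, of which 78.1% were higher, so the shared direction was close to that of all genes. The 8 include the GCLC sum, which reached the filter only through the arsenite group. Without the most tagged peak of each member sum, 5 of 7 were higher and 2 lower.

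The remaining members did not pass the nuclear test. NFE2L2 intron sums were 162, 147 and 146 CPM in mock and 139, 156 and 146 after arsenite, and the groups overlapped (difference -0.04, SE 0.10). TXNRD1 and GCLM introns averaged 67.4 and 45.4 CPM in mock and 88.0 and 49.1 after arsenite. HMOX1 introns were at 1.46, 2.73 and 1.93 CPM in mock and at 7.21, 9.60 and 5.20 after arsenite without overlap (difference 1.14, SE 0.34, limma adjusted p = 0.0647). GCLC 3'UTRs were at 1.46, 0 and 0.966 CPM and at 4.0, 4.0 and 5.20, also without overlap, given as a description because the sum reached the filter only through the arsenite group. No single member peak was called among 221 by limma, beside 0.186% of all peaks, while 29 had an unadjusted p under 0.05, as had 22471 of all 200232 peaks, and edgeR called 3, of 755 calls in all.

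After arsenite the 2 fractions were less far apart. Only 1 of 27 member sums differed between them, beside 4.99% of all sums: GCLM 3'UTR, at means of 25.9 CPM in the nucleus and 51.7 in the cytoplasm (difference -0.94, SE 0.19, limma adjusted p = 0.00257). Of all sums 3.38% were called lower in the nucleus. The GCLM sum lost the call without nuclear arsenite replicate 2 or 3 or cytoplasmic arsenite replicate 1 or 2, with an adjusted p of up to 0.207. TXNRD1 3'UTR sums overlapped, at means of 88.2 ± 13.8 CPM (SD, n = 3) and 110 ± 13.1, and so did NFE2L2 intron sums, at 147 ± 8.36 and 140 ± 8.48. No member peak of 255 was called by limma, beside 0.257% of all peaks, 26 had an unadjusted p under 0.05, as had 27466 of all 236332 peaks, and edgeR called 2, of 1549 calls in all.

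The difference in response between the fractions was tested by an interaction term over the 12 libraries, nuclear response over cytoplasmic response. It uses the same libraries as the comparisons above and is not independent of them. Of 28 member sums 5 were called, beside 11.0% of all sums, with 3 higher and 2 lower beside 7.05% and 3.99%. The 3'UTR sums of TXNRD1 (2.18, SE 0.23, limma adjusted p = 2.19e-11), GCLM (1.56, SE 0.31, limma adjusted p = 0.000108) and SLC7A11 (1.55, SE 0.41, limma adjusted p = 0.00587) were higher, and these 3 calls held with any one library left out. Without its most tagged peak the SLC7A11 term was not called (adjusted p = 0.0662). The NFE2L2 intron sum (-0.57, SE 0.19, limma adjusted p = 0.0392) was lower, and so was the sum of the ncRNA peaks upstream of the gene that carry its name (-1.14, SE 0.34, limma adjusted p = 0.0188). Both were lost with any one of 7 libraries left out, with adjusted p-values of up to 0.112 and 0.138. The intron call was lost without any nuclear mock library, nuclear arsenite replicate 1 or 3, or cytoplasmic arsenite replicate 1 or 3. The ncRNA call was lost without nuclear mock replicate 3, nuclear arsenite replicate 1, cytoplasmic mock replicate 2 or 3, or any cytoplasmic arsenite library. All 9 member 3'UTR terms were above 0, with a median of 0.97 against 0.63 over 7282 genes, of which 24.2% were called higher, but 7 of 8 were when the most tagged peak of each sum was left out.

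Groups of 3 libraries also allow an exact two-sided permutation test of a single sum, which cannot go below p = 0.1 here. Over 36 such tests of the members' main classes, 15 pairs of groups did not overlap, and the smallest Benjamini-Hochberg adjusted p was 0.24, so this test calls nothing by design. Over all sums of the table the share of groups without overlap was 31.8% for arsenite in the cytoplasm, 25.3% in the nucleus, 42.7% between the mock fractions and 23.0% between the arsenite fractions.

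In the inputs of the APEX lines TXNRD1 and GCLM 3'UTRs were called by edgeR and within 1 library set, but not by limma over all inputs. In the limma fit over 17 inputs, with line and library set as terms, 0 of 15 member sums were called and 0.0% of 11316 sums were, although 1175 sums and 2 of the members had an unadjusted p under 0.05. Those 2 were the 3'UTR sums of TXNRD1 (1.77, SE 0.69, adjusted p = 0.461) and of SLC7A11 (1.05, adjusted p = 0.463). Within library set JL0388 alone the SLC7A11 difference was -0.21 (adjusted p = 0.89). Of all 3802 3'UTR sums tested in the inputs, 88.1% were higher after arsenite, with a median of 0.47. On recovered tags edgeR called 815 sums, 7.20% of those tested, of which 3 were members: TXNRD1 3'UTR (1.26, edgeR adjusted p = 0.00529), GCLM 3'UTR (1.24) and GCLM intron (0.93). Within library set JL0388, which holds 1 input per line and treatment, TXNRD1 3'UTR sums were higher after arsenite in all 3 lines. They were 8.65 CPM in mock and 16.99 after arsenite for NLS, 14.4 and 34.6 for NES, and 3.92 and 38.6 for G3BP (1.56, limma adjusted p = 3.42e-05). The G3BP mock value rested on 3 tags. With 1 library per line and treatment, few libraries stand behind the p-values of this set. GCLM 3'UTR sums in that set were 9.26 and 24.0 CPM, 14.4 and 14.8, and 6.53 and 32.6 in the same order of lines (1.07, limma adjusted p = 0.0172), and GCLM introns were also called (0.98, limma adjusted p = 0.0251). The GCLM 3'UTR values of 6.53 and 14.8 CPM rested on 5 and 6 tags. In that set 3 of 19 member sums were called, beside 2.89% of all sums. Within sets JL0361 and JL1024 the TXNRD1 differences were 1.09 (adjusted p = 0.848) and 2.51 (adjusted p = 0.763).

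**Figure D5:**
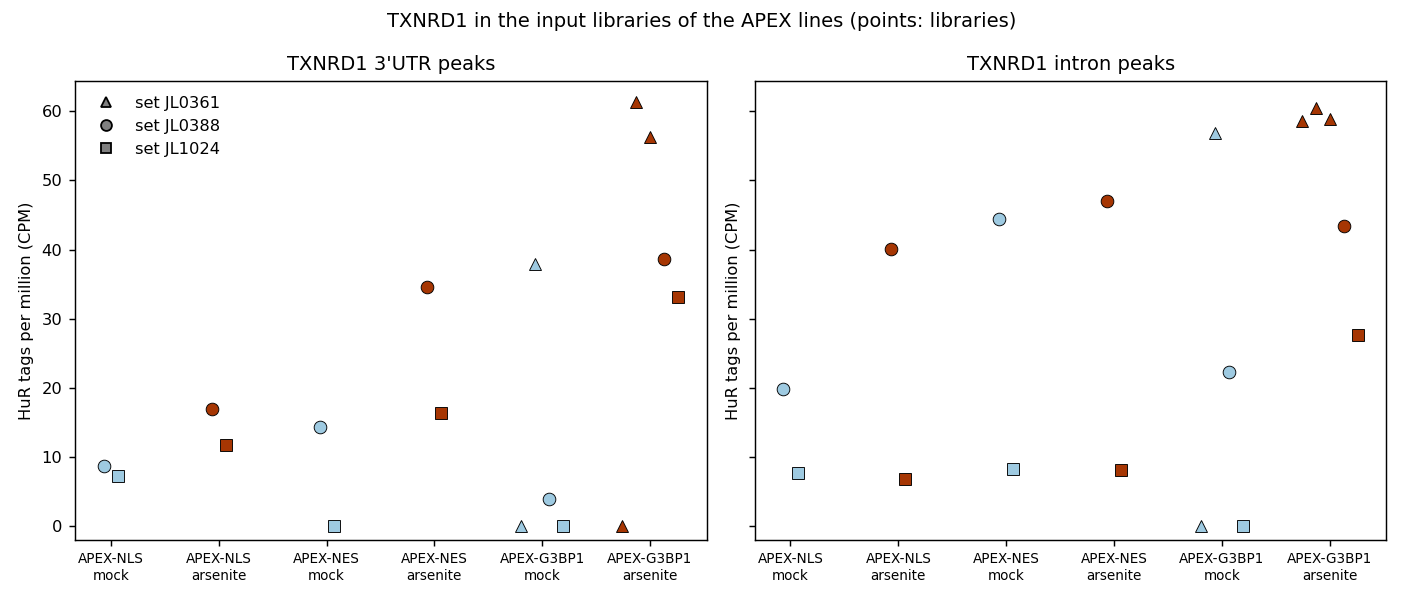
TXNRD1 3'UTR and intron sums in CPM in each input library of the APEX lines, by line and treatment; marker shapes are library sets. For the 3'UTR in set JL0388 the arsenite input lies above the mock input in each line, while 1 G3BP mock input of set JL0361 reaches 37.95 CPM on 8 tags.

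No member was called in the enriched libraries by limma over all sets or by edgeR. In the NLS, NES and G3BP lines 8, 4 and 4 member sums passed the filter and 0 were called by limma, beside 0.0% of 5238, 1554 and 2560 sums, and edgeR called 2, 0 and 108 sums, of which 0 were members. TXNRD1 3'UTR sums in the G3BP line, where HuR near a stress granule protein was captured, were 23.3 ± 18.5 CPM in mock (SD, n = 5) and 47.6 ± 34.7 after arsenite (n = 6). The difference of these means lay within the larger SD. The means are not weighted by depth. A mock library at 67.8 CPM held 1 tag, and arsenite libraries at 71.3 and 104.6 CPM held 2 and 7 tags. Of all 1417 3'UTR sums tested in this line, 91.7% were higher after arsenite, with a median of 1.31. In these means, pairs of libraries that did not differ beyond sampling noise were counted as 1 sample. Within set JL0388 limma called the TXNRD1 intron sum in this line, beside 49.6% of all sums, on 2 tags and 1 tag in the arsenite libraries and 0 in both mock libraries. Each group there is such a pair and the sum passed the filter through the arsenite group alone, so this call is not used. The single HMOX1 3'UTR value above 0 in G3BP enriched mock libraries, 214.5 CPM, was 1 tag in 1 shallow library.

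A list of 44 other genes of the NRF2 pathway and its partners gave the wider picture. In the cytoplasm 31 of them had sums that could be tested, and of 76 sums 7 rose and 8 fell, beside 6.7% and 6.62% of all sums. PRDX1, a peroxiredoxin, fell in its 3'UTR from 183 ± 23.6 CPM (SD, n = 3) to 43.7 ± 16.1 (difference -2.06, limma adjusted p = 1.22e-05), and TXN, the thioredoxin that TXNRD1 reduces, from 50.8 ± 9.03 to 6.55 ± 5.37 (difference -2.75, limma adjusted p = 6.23e-05). GSR, glutathione reductase, fell in its 3'UTR (-0.80) and rose in its introns (1.07), and introns of BACH1, a repressor of NRF2 targets (0.90), and of CUL3, the ligase scaffold for KEAP1 (0.66), rose. In the nucleus 5 of 71 sums rose and 1 fell, beside 4.48% and 1.65%. UGDH, which makes UDP-glucuronate (1.85), SOD2, the mitochondrial superoxide dismutase (1.27), IDH1, a source of NADPH (1.12), and GSR (0.96) rose in their 3'UTRs, while TXN fell in its own (-1.67, limma adjusted p = 0.00809). TXN therefore fell in both fractions, unlike TXNRD1, which rose in the nucleus and fell in the cytoplasm. Between the mock fractions 8 of 72 sums were higher and 17 lower in the nucleus, beside 12.8% and 16.2% of all sums. Between the arsenite fractions 2 of 78 were higher and 7 lower, beside 1.62% and 3.38%. Of 82 interaction terms 11 were higher and 1 lower, beside 7.05% and 3.99%. The counts of this list include sums that reached the filter only through the group where they are high. ABCC1 introns were such a sum in the cytoplasm, at 2.25 CPM after arsenite and 0 in mock. Between the mock fractions so were the coding sequences of PRDX1 and MGST1, at 0 CPM in the nucleus, and MAFF introns, at 0 in the cytoplasm. For these a difference was partly a condition of being tested.

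Over the 16 group means of all libraries, the 3 genes whose 3'UTR level ran closest to that of TXNRD1 were TOR1AIP2 (Pearson r = 0.974), ATP1B1 (0.950) and HNRNPK (0.949), of 942 genes above 0 in every group. These means share libraries and depth, so the values describe the table and carry no test.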

How the data were processed

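The authors deposited, per the file headers, 1 table of peaks with a normalised coverage signal per library. Per the submitters' processing notes Bowtie2, SAMtools, bedtools, HOMER and GRCh38.p14 were used, and versions and roles are not given in the sources used here. Coordinates are printed as in the table, which does not state whether starts count from 0 or 1. Each deposited signal was a whole multiple of 1 tag over the library total for 100% of values (tolerance 0.02), so tag counts and totals (686263 to 1759090 in the fractions) could be recovered, and 34.1% to 38.7% of these lay in peaks. Of 395471 lines, 8257 repeats were dropped, and 84358 peaks had no gene name.

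Tags were summed by gene and class (30217 sums), kept if the number of libraries above 0 reached the size of the smaller group, and tested as log2(CPM + 2.28) with limma 3.58.1 in R 4.3.3, fitting the libraries of each comparison, with Benjamini-Hochberg adjustment over all sums or peaks at 0.05. The deposited signal was also tested as recovered tag counts with edgeR 4.0.16. The fits were tested on simulated data, and matplotlib 3.10.9, scipy 1.17.1, pandas 2.3.3 and numpy 2.4.6 served for the rest in Python 3.11.15. Enriched libraries of set JL0388 held 5 pairs that did not differ beyond sampling noise. Each pair was counted as 1 sample in means and, as an alternative, in the fits, which otherwise held both. The members, lists and rules were chosen with earlier results of these data known. Named were the class with the highest mean per gene, its most tagged peak, up to 4 called peaks per fit, and the 3 genes nearest to TXNRD1 over group means; the other 3'UTR peaks were picked from the plot by distance after their values were seen. Deviations of same-numbered fraction libraries correlated at -0.0476 to 0.0306 over all sums tested. Counting noise in low sums weakens such correlations, so this check cannot show that the libraries are unpaired. The main fits did not pair them, and a replicate block on these numbers was an alternative. No sequence is printed, since no genome of the build was used here.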

Additional observations from a re-analysis of the deposited data

Results flagged for a closer look

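In the TXNRD1 3'UTR sum, G3BP input mock replicate 2 stood far from the other mock inputs of that line, at 37.95 CPM against 3.92 for the next. It rests on 8 tags. Of 21 groups of member values tested for such a library it was the only one, and chance alone would give about 1 in 20. Its part in the edgeR calls over all inputs was not tested, and set JL0388 does not hold it.

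The response to arsenite differed between the nuclear and cytoplasmic fractions, by the interaction term of limma, in 5 member sums: the 3'UTR sums of TXNRD1 (2.184), GCLM (1.561) and SLC7A11 (1.554), the NFE2L2 intron sum (-0.5744) and the sum of the ncRNA peaks named NFE2L2 (-1.137). Beside them 11.0% of all sums were called.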

How the results depend on the processing

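Alternatives were another pseudocount, no filter, scaling to tags in peaks, edgeR on recovered tags and sums over all classes of a gene. Others were the replicate block, library sets and leaving out 1 library. Leaving out the most tagged peak of each member sum was added after seeing the data. No called result of the fractions reversed. Among differences that were not called, that of SLC7A11 3'UTR in the inputs (1.05) was -0.21 within set JL0388 (adjusted p = 0.89). The share of all sums or peaks called in the same fit stands in brackets. Summed over all classes of a gene, member calls numbered 2 in the cytoplasm (20.1%), 5 between the mock fractions (32.2%) and 2 for the interaction (13.5%). Without the most tagged peak of each member sum, 6 of 21 were called in the cytoplasm (13.3%). Between the mock fractions 6 of 20 were (29.0%), between the arsenite fractions 2 of 21 (5.00%) and for the interaction 5 of 23 (11.0%). Sums of other genes kept their most tagged peak there, so these shares are not like for like. Input calls were 3 by edgeR (7.20%) and 3 within set JL0388 (2.89%), and G3BP enriched calls were 1 within JL0388 (49.6%). Member peaks called in the cytoplasm were 4 with a pseudocount 4 times smaller (3.49%), 1 with one 4 times larger (0.724%), 4 without a filter (0.504%) and 4 by edgeR (1.44%). In the nucleus they were 3 without a filter (0.245%) and 3 by edgeR (0.377%), and between the arsenite fractions 1 (0.358%) and 2 (0.655%). Between the mock fractions they were 6 with the smaller pseudocount (1.87%), 8 with the larger (2.80%) and 11 without a filter (2.00%). There edgeR called 8 (2.80%), the replicate block gave 8 (2.53%) and scaling to tags in peaks gave 10 (3.20%). With the replicate block, peak calls were 4 in the cytoplasm (1.21%) and 1 in the nucleus (0.219%), and the NFE2L2 intron interaction was lost (adjusted p = 0.0537). The block also put the cytoplasmic KEAP1 intron sum past the threshold (adjusted p = 0.0492), which is not used, since the sum reached the filter only through the arsenite group; the numbers are not known to pair libraries. Leaving out 1 library gave 0 to 8 member sums called in the cytoplasm (1.95% to 11.8%), 0 to 2 in the nucleus (0.223% to 3.74%), 6 to 8 between the mock fractions (16.03% to 21.7%), 0 to 1 between the arsenite fractions (0.611% to 3.17%), 3 to 5 for the interaction (7.54% to 11.8%) and 0 in inputs and enriched libraries (0.0% to 0.0321%). Peak calls were 0 to 14 (0.0% to 7.16%), 0 to 9 (0.000372% to 3.37%), 0 to 12 (0.0% to 7.46%) and 0 (0.0% to 0.0196%) in the same order. The causes were not tested. Depth limits HMOX1, KEAP1, NQO1 and the 3'UTR sums of GCLC, SQSTM1, SLC7A11 and NFE2L2, where 1 library often held fewer than 10 tags. It also limits all enriched libraries.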
